A study of Mus musculus with 6 samples.

Results

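Frmpd4, Xkr4, Dapk2, Ctse and Pamr1 are 5 genes whose messenger RNA was more abundant in mammary basal epithelial cells of Vim knockout mice than in those of wild-type mice. They are 5 of 23337 genes in the count files, and each of the 5 was among the 13925 genes with enough reads to be tested. They were chosen by name, for their difference between the genotypes in these same libraries, so that difference is described below and carries no test.

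The knockout group had 4 libraries of Vimtm1Cba/tm1Cba mice and the wild-type group 2 libraries of Vimwt/wt mice. All mice were 15 weeks old, on a 129/Sv X C57BL/6 background, and each library pooled the cells of 2 to 3 mice, so p-values measure the spread between such pools. The allele is a germline null, so the other cell types of the knockout glands carried it too. Basal cells were sorted from collagenase-digested glands by flow cytometry, as living cells without the leukocyte protein CD45 or the endothelial protein CD31, with little CD24 and much CD49f. The labels speak of separate experiments without naming the samples of each. A date-like code in each file's name, here called the day code, places knockout 3, knockout 4 and wild type 2 on a later day and knockout 1, knockout 2 and wild type 1 on an earlier day, and this code is used as a batch. Each genotype was therefore measured on both days, with 1 wild-type library a day.

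Vimentin is an intermediate filament protein, and basal mammary cells contain it. The 5 genes belong to unrelated families. Frmpd4 encodes a FERM and PDZ domain scaffold, also called Preso, that binds the postsynaptic protein PSD-95 and Homer proteins in neurons. Xkr4 encodes a membrane protein of the Xk-related family, whose scramblases are switched on by caspases and expose phosphatidylserine on dying cells. Dapk2 encodes a calcium and calmodulin dependent protein kinase of the death-associated kinase family. Ctse encodes cathepsin E, an intracellular aspartic protease related to pepsin. Pamr1 encodes a secreted protein with CUB and EGF-like domains and a trypsin-like domain, known from regenerating muscle.

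On mm10 the genes lie far apart. Frmpd4 is on chromosome X, positions 167471309 to 168577233 on the minus strand, with 20 annotated exons and 8609 exonic bases. Xkr4 is on chromosome 1, positions 3214482 to 3671498 on the minus strand, with 3 exons and 3634 exonic bases. Ctse is on the same chromosome, at positions 131638314 to 131675507 on the plus strand, with 10 exons and 2120 exonic bases. Dapk2 is on chromosome 9, positions 66158226 to 66272242 on the plus strand, with 12 exons and 1769 exonic bases. Pamr1 is on chromosome 2, positions 102550021 to 102643040 on the plus strand, with 11 exons and 2854 exonic bases. Vim is on that chromosome too, at positions 13574311 to 13582826. Counts are of reads over all exons of a gene on its own strand, and no exon of the 5 genes shares bases with an exon of another gene in the count files or in GENCODE M21.

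RefSeq promoter sequences (GRCm38.p6, the assembly of mm10) were matched for 2 of the 5 genes, Frmpd4 and Dapk2. They are shown because these genes were higher in the knockout by a similar fold and had day differences of opposite sign. Each run is the 250 bases before the transcript start, 5′ to 3′ on the strand of the gene, and capitals mark matches to the motifs searched. Dapk2 lies at chr9:66157976-66158225 on the plus strand, and the Frmpd4 start nearest to that of the count files lies at chrX:168577235-168577484 on the minus strand.
Dapk2: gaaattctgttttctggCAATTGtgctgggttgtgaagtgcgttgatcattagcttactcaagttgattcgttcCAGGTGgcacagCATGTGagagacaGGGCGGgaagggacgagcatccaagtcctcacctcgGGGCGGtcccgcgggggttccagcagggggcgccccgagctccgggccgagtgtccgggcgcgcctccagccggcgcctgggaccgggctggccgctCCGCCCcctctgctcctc
Frmpd4: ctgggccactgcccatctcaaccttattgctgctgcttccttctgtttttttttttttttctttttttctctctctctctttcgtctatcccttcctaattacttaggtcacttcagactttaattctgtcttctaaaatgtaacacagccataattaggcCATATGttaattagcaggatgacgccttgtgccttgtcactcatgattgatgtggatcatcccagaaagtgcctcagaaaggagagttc

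The Frmpd4 windows differed among themselves in base composition. The Dapk2 window was 65.2% G or C with 20 CpG dinucleotides, above 83.0% of the 32851 promoters for G or C. The printed Frmpd4 window was 40.4% G or C with 2 CpG dinucleotides, above 12.5% of promoters. RefSeq has 2 more Frmpd4 starts inside the gene: the window before position 168122941 was 70% G or C with 18 CpG dinucleotides, above 90.8% of promoters, and that before position 167855077 was 48.4% G or C with 3, above 35.1%. The first bases transcribed from the printed Frmpd4 start were not found in a GENCODE M21 transcript of the gene. Those of the other 2 Frmpd4 starts and of the Dapk2 start were found. Counts summed over the gene do not tell the Frmpd4 starts apart, so no contrast with Dapk2 is drawn. The motifs were searched on both strands: the GC box GGGCGG, the CCAAT box CCAAT, the TATA box TATAAA, the TEAD core GGAATG, the E-box CANNTG and the AP-1 motif TGANTCA. Dapk2 held 3 GC boxes, at -151 to -146, -115 to -110 and -18 to -13 from the start, and 3 E-boxes. The printed Frmpd4 window held 1 E-box, at -89 to -84. The window before 168122941 held 2 GC boxes, at -201 to -196 and -171 to -166, and that before 167855077 held a CCAAT box at -245 to -241 and an E-box at -228 to -223. Of all promoters of this length 32.7% held a GC box, 66.2% an E-box, 33.8% a CCAAT box, 12.4% a TATA box, 12.6% a TEAD core and 6.75% an AP-1 motif. No match to the last 4 was in either printed window, which says only that these letters are not there.

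Library totals ran from 25347967 to 31200622 counts. Vim itself was at 105 ± 8.96 CPM (counts scaled to library size by TMM, the trimmed mean of M values; SD, n = 4) in the knockout libraries and at 228 ± 18.5 CPM (SD, n = 2) in the wild-type libraries, a ratio of 0.461. The reads that remain were not assigned to exons, so the part of Vim they cover was not analysed here. The basal keratin and muscle genes of a 10-gene basal marker list were abundant in every library, with a summed level of 17609 to 20885 CPM in the knockout libraries and 19811 to 20605 CPM in the wild-type libraries, and none of the 10 was called between genotypes.

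**Figure D1:**
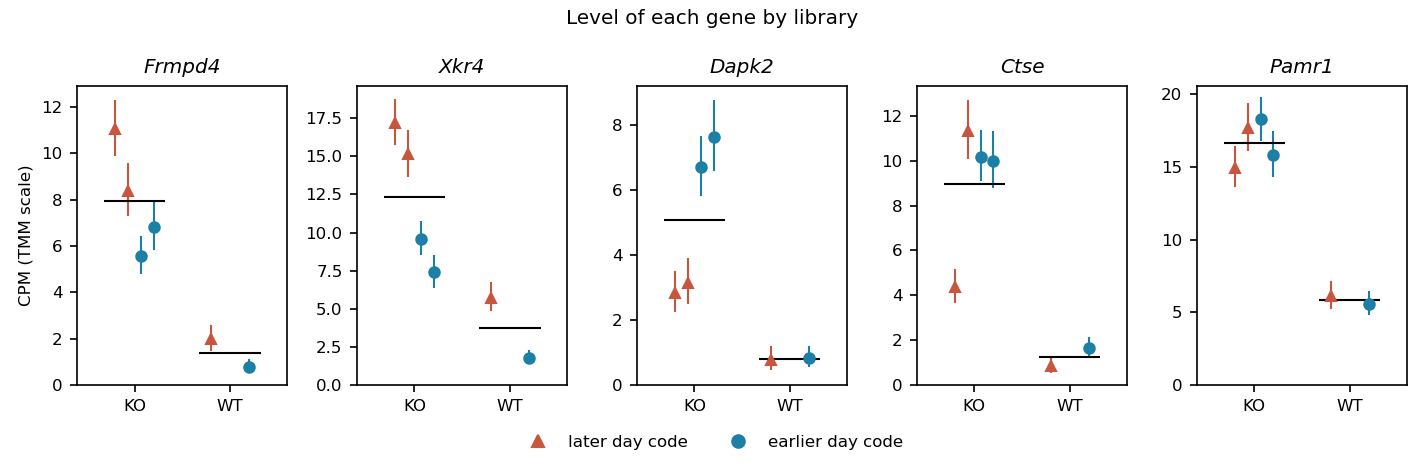
Level of each of the 5 genes in CPM (linear axis from 0, a separate scale for each gene) in the 4 knockout (KO) and 2 wild-type (WT) libraries; triangles are the later and circles the earlier day code, bars are exact 95% Poisson counting intervals and black lines are group means. Every knockout library sits above both wild-type libraries for each gene, and within the knockout group the days separate for Frmpd4, Xkr4 and Dapk2.

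Each of the 5 genes was higher in all 4 knockout libraries than in either wild-type library. Of all 13925 genes tested, 7.6% showed the same order. Wild-type counts were low, the lowest being 20 reads for Dapk2 in wild type 2. Fewer cells that express a gene and less RNA of it per cell cannot be told apart in such bulk samples.

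Frmpd4, the neuronal scaffold gene, had the lowest level per length of the 5. It had 177, 172, 329 and 213 counts in knockout 1 to 4, against 25 and 51 counts in wild type 1 and 2. On the CPM scale these were 5.56, 6.80, 11.1 and 8.38 in the knockout libraries and 0.760 and 1.96 in the wild-type libraries. The groups did not overlap, and the lowest knockout library was 2.83 times the highest wild-type library. The means were 7.95 ± 2.37 CPM (SD, n = 4) in knockout and 1.36 ± 0.850 CPM (SD, n = 2) in wild type, a log2 difference of 2.56 (SE 0.45). The wild-type libraries were 2.58-fold apart, and leaving out wild type 2 gave a log2 difference of 3.38, leaving out wild type 1 one of 2.03.

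Xkr4, the Xk-related gene, showed the widest spread between wild-type libraries. It had 305, 187, 512 and 385 counts in knockout 1 to 4, against 58 and 149 counts in wild type 1 and 2. The levels were 9.59, 7.39, 17.2 and 15.2 CPM in the knockout libraries and 1.76 and 5.74 CPM in the wild-type libraries. Knockout 2 was only 1.29 times wild type 2, the smallest gap between the groups among the 5 genes, but those libraries carry different day codes. The means were 12.3 ± 4.60 CPM (SD, n = 4) in knockout and 3.75 ± 2.81 CPM (SD, n = 2) in wild type, a log2 difference of 1.73 (SE 0.52). Leaving out wild type 2 gave 2.80, and leaving out wild type 1 gave 1.12.

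Dapk2, the kinase gene, had 213, 193, 84 and 80 counts in knockout 1 to 4, against 27 and 20 counts in wild type 1 and 2. The levels were 6.70, 7.63, 2.82 and 3.15 CPM in the knockout libraries and 0.821 and 0.770 CPM in the wild-type libraries. The wild-type libraries were nearly level with each other, and the knockout libraries fell into a high pair and a low pair that follow the day codes. The means were 5.07 ± 2.44 CPM (SD, n = 4) in knockout and 0.796 ± 0.0363 CPM (SD, n = 2) in wild type, a log2 difference of 2.66 (SE 0.52). The counting interval of the wild-type values is wider than their spread, at 0.470 to 1.19 CPM (95%, exact Poisson) for wild type 2.

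Ctse, the cathepsin E gene, had 324, 253, 130 and 288 counts in knockout 1 to 4, against 54 and 22 counts in wild type 1 and 2. The levels were 10.2, 9.997, 4.37 and 11.3 CPM in the knockout libraries and 1.64 and 0.847 CPM in the wild-type libraries. Knockout 3 stood below the other knockout libraries and was still 2.66 times the highest wild-type library. The means were 8.97 ± 3.13 CPM (SD, n = 4) in knockout and 1.24 ± 0.563 CPM (SD, n = 2) in wild type. The log2 difference was 2.83 (SE 0.47). Leaving out wild type 1 gave 3.41, and leaving out wild type 2 gave 2.45.

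Pamr1, the secreted CUB and EGF-like domain gene, had 581, 400, 445 and 449 counts in knockout 1 to 4, against 184 and 159 counts in wild type 1 and 2. The levels were 18.3, 15.8, 14.9 and 17.7 CPM in the knockout libraries and 5.60 and 6.12 CPM in the wild-type libraries. It varied least within the knockout group, with an SD of 9.33% of the mean, against 29.8% for Frmpd4, 34.8% for Ctse, 37.3% for Xkr4 and 48.2% for Dapk2. The means were 16.7 ± 1.56 CPM (SD, n = 4) in knockout and 5.86 ± 0.370 CPM (SD, n = 2) in wild type, a log2 difference of 1.51 (SE 0.17). This SE was the smallest of the 5.

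Per length, in CPM per kb of exon (RPKM), the order of the genes in knockout libraries was Pamr1 at 5.84 ± 0.545, Ctse at 4.23 ± 1.47, Xkr4 at 3.39 ± 1.27, Dapk2 at 2.87 ± 1.38 and Frmpd4 at 0.923 ± 0.275 (SD, n = 4). Neighbours in that order overlapped in range, except Dapk2 and Frmpd4. Library by library, Pamr1 was above Ctse and Dapk2 above Frmpd4 in all 4. In wild-type libraries the order was Pamr1 at 2.05 ± 0.130, Xkr4 at 1.03 ± 0.773, Ctse at 0.587 ± 0.265, Dapk2 at 0.450 ± 0.0205 and Frmpd4 at 0.158 ± 0.0988 RPKM (SD, n = 2). There Pamr1 lay above the rest and Frmpd4 below the rest without overlap, and between them Xkr4 overlapped with Ctse, and Ctse with Dapk2. Even the highest of these levels is modest for the cells: Pamr1 stood above 47.3% of tested genes in knockout and 29.8% in wild type, and Frmpd4 above 19.7% in knockout and 4.11% in wild type.

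Within a day code, each knockout library has 1 wild-type partner. For Frmpd4 the knockout mean was 4.95 times wild type on the later day and 8.13 times on the earlier day. For Xkr4 it was 2.82 times on the later and 4.81 times on the earlier day, and for Dapk2 3.88 times on the later and 8.72 times on the earlier day. Ctse went the other way, with 9.27 times on the later day and 6.14 times on the earlier day. Pamr1 was 2.66 times wild type on the later and 3.04 times on the earlier day. The knockout was thus above wild type on both days for each gene, and each of the 20 pairs of a gene and a knockout library was at least 2.44-fold above its wild type. A rise of at least 2-fold in every such pair was shown by 0.596% of genes tested.

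**Figure D2:**
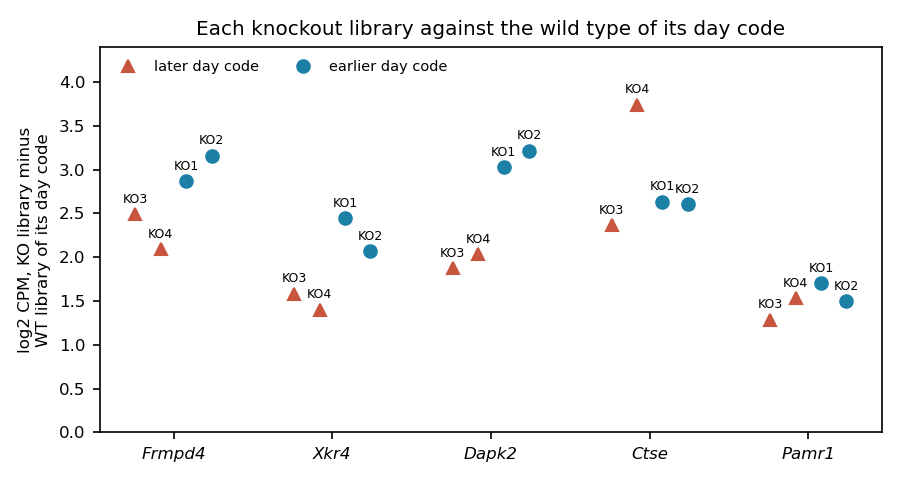
Log2 CPM of each knockout library (KO1 to KO4) minus that of the wild-type library with the same day code, for each gene; triangles are the later and circles the earlier day code. The 20 points run from 1.29 for Pamr1 in KO3 to 3.74 for Ctse in KO4, and for Frmpd4, Xkr4 and Dapk2 the later points are lower than the earlier points.

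The test of whether the genotype difference itself differed between days called none of the 5 genes. The log2 term was -0.71 (SE 0.49) for Frmpd4, -0.77 (SE 0.39) for Xkr4, -1.17 (SE 0.52) for Dapk2, 0.58 (SE 0.85) for Ctse and -0.19 (SE 0.33) for Pamr1, with an adjusted p of at least 0.998 by edgeR for each. Over all genes edgeR called 0 (0%), with 586 (4.21%) at an unadjusted p under 0.05, and DESeq2 called 11. With 1 wild-type library a day this test is weak, and the genes were chosen with fits whose error includes this term.

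The later minus earlier difference with genotype held is not the contrast on which the genes were chosen. It does enter the error of the genotype-only fit, so it is not fully independent of that choice. By edgeR it was called for 1 of the 5 genes, beside 6.43% of all genes tested. Xkr4 rose on the later day, to 17.2 and 15.2 CPM against 9.59 and 7.39 CPM in knockout libraries and to 5.74 against 1.76 CPM in wild-type libraries. The log2 difference was 1.15 (SE 0.20, edgeR adjusted p = 0.0123), and the later libraries were higher in both genotypes, as for 17.9% of genes tested. The call was lost when wild type 1 was left out (0.93, edgeR adjusted p = 0.104), and also when wild type 2 was (0.93, edgeR adjusted p = 0.107).

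Frmpd4 had a day difference in the same direction, 0.83 (SE 0.22, edgeR adjusted p = 0.0565), with the same order in both genotypes. Dapk2 had one of -0.98 (SE 0.27, edgeR adjusted p = 0.0628). The later libraries were lower in both genotypes, as for 18.4% of genes tested. For Dapk2 the gap lay in the knockout libraries, at 2.82 and 3.15 CPM on the later day against 6.70 and 7.63 CPM on the earlier day, while the wild-type values of 0.770 and 0.821 CPM lay within each other's counting interval. Neither of these genes passed in the main edgeR fit. Both passed by DESeq2 (adjusted p = 0.0195 for Frmpd4 and 0.0292 for Dapk2) and by edgeR without the filter on low counts (0.0212 and 0.0242). Dapk2 also passed by limma-voom (adjusted p = 0.0289). Ctse (-0.50, SE 0.34, edgeR adjusted p = 0.423) and Pamr1 (-0.01, SE 0.15, adjusted p = 0.987) did not pass.

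**Figure D3:**
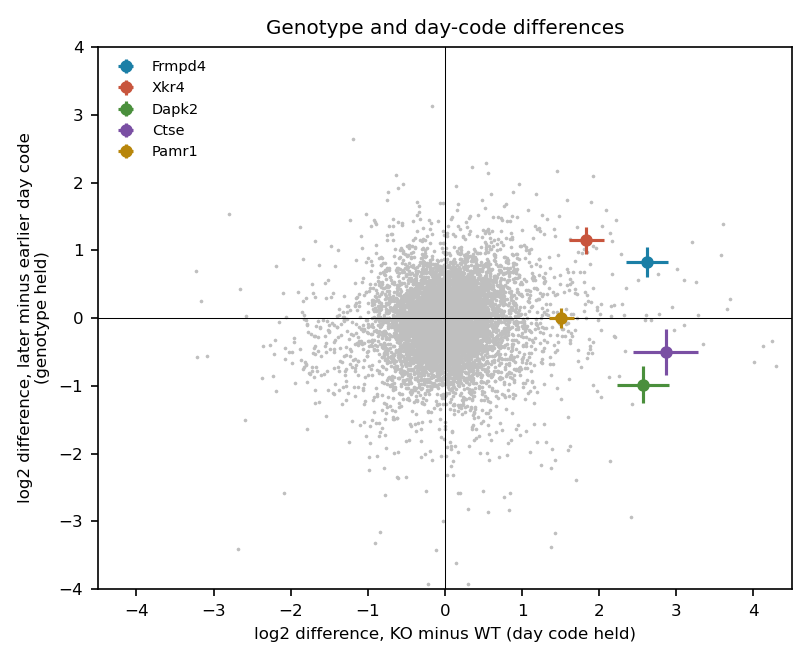
Log2 difference between knockout and wild type with day code held (horizontal) against that between the later and earlier day code with genotype held (vertical), from edgeR; coloured points are the 5 genes with SE bars and grey points the other tested genes, of which 8 lie outside the axes. The 5 genes lie to the right, from 1.51 to 2.86, and spread vertically from -0.98 for Dapk2 to 1.15 for Xkr4.

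The genes related to the 5 were compared between genotypes in 9 lists, of relatives and of known partners or substrates. Of 77 listed genes 74 were in the count files and 57 were tested. None was called by edgeR, where 11 of all genes (0.079%) were, 8 higher (0.0575%) and 3 lower (0.0215%). An unadjusted p under 0.05 was found for 8 of the 57, a larger share than the 8.57% of all genes. With the day code as a block 0 rose and 2 fell (3.51% of the 57). In that fit 1.56% of all genes were called, 0.438% as lower. The median log2 difference of the 57 was -0.03, against -0.01 over all genes tested. Of the 57, 23 (40.4%) lay above 0, against 47.6% of all genes tested.

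Of the other Frmpd genes in the count files only Frmpd1 had enough reads to be tested. Frmpd1 had a log2 difference of -0.39 (SE 0.74, edgeR adjusted p = 0.960) between genotypes. Its later minus earlier log2 difference was -2.05 (SE 0.23, edgeR adjusted p = 0.00239), with 1.55, 1.26 and 1.54 CPM in knockout 3, knockout 4 and wild type 2 against 5.12, 5.73 and 7.36 CPM in knockout 1, knockout 2 and wild type 1. The day direction of Frmpd1 was thus opposite to that of Frmpd4. Of 8 partner genes 6 were tested and 0 called. Homer3, the partner with the highest level per length, was at 48.4 ± 3.04 CPM in knockout and 56.2 ± 0.404 CPM in wild type (SD, n = 4 and 2; log2 difference -0.21, SE 0.11, edgeR adjusted p = 0.658). Homer1 rose on the later day by 0.54 (SE 0.09, edgeR adjusted p = 0.0124), the 1 partner called between days, beside 6.43% of all genes. This is the direction of Frmpd4, whose own day difference was not called in the main edgeR fit. Homer2 (0.48) and Arhgef7 (0.12) had the same sign, and Dlg4 (-0.45), Gpsm2 (-0.44) and Homer3 (-0.09) the opposite sign.

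Xkr4 was the Xk-related gene with the highest level. Per length it was at 3.39 RPKM in knockout and 1.03 in wild type, while Xk, the next, was at 0.468 in knockout and 0.544 in wild type (log2 difference -0.21, SE 0.30, edgeR adjusted p = 0.9505). Xkr8, the scramblase gene most widely expressed in mouse tissues, was at 0.150 in knockout and 0.163 RPKM in wild type (-0.14, SE 0.51, adjusted p = 0.984). Of 7 Xk-related genes 2 passed the filter on low counts, and Xkr7 had no read. Of 9 genes that act in phosphatidylserine exposure, all were tested and 0 called. Ano6, a calcium-activated scramblase gene and the highest of these per length, was at 564 ± 13.5 CPM in knockout and 652 ± 106 CPM in wild type (SD, n = 4 and 2; -0.21, SE 0.13, edgeR adjusted p = 0.761).

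The kinases closest to Dapk2 did not pass either. Dapk1, the highest of them per length, was at 81.1 ± 8.98 CPM in knockout and 82.9 ± 5.56 CPM in wild type (SD, n = 4 and 2; log2 difference -0.03, SE 0.13, edgeR adjusted p = 0.987). In wild-type cells it was at 14.0 RPKM, against 0.450 for Dapk2. Of 14 genes for calmodulins, myosin light chains, 14-3-3 proteins, Becn1 and Rptor, which bind Dapk2 or are its substrates, 0 were called, with a median log2 difference of 0.01. Myl9, a myosin light chain gene and the highest of these per length, was at 474 ± 11.9 CPM in knockout and 424 ± 6.93 CPM in wild type (0.16, SE 0.11, adjusted p = 0.798).

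Among 3 tested aspartic protease genes other than Ctse, 0 were called. Ctsd, the gene of the lysosomal aspartic protease cathepsin D, was at 387 ± 29.7 CPM in knockout and 317 ± 24.1 CPM in wild type (SD, n = 4 and 2; log2 difference 0.29, SE 0.12, edgeR adjusted p = 0.578). Per length it was at 198 RPKM in knockout, where Ctse was at 4.23. The other cathepsin and cystatin genes had a median log2 difference of -0.31, with 9 of 12 tested members below 0 and 0 called. With the day code as a block 1 of them fell, Ctsc, the gene of dipeptidyl peptidase cathepsin C, at 27.3 ± 2.72 CPM in knockout and 43.7 ± 2.65 CPM in wild type (-0.68, SE 0.12, edgeR adjusted p = 0.0263, against 0.176 without the block). Ctsl, the cysteine cathepsin gene with the highest level per length, was at 1789 ± 227 CPM in knockout and 2778 ± 209 CPM in wild type (-0.64, SE 0.15, edgeR adjusted p = 0.256).

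Of the secreted proteases and enhancers with CUB domains, 10 of 12 listed genes were in the count files, 7 were tested and 0 called. Their median log2 difference was 0.23, with 4 of the 7 above 0. Bmp1, a procollagen protease gene and the highest of them per length, was at 416 ± 47.4 CPM in knockout and 348 ± 21.6 CPM in wild type (SD, n = 4 and 2; log2 difference 0.26, SE 0.14, edgeR adjusted p = 0.692). With the day code as a block 1 fell, Masp2, a protease gene of the lectin complement pathway, at 15.9 ± 2.33 CPM in knockout and 26.2 ± 2.83 CPM in wild type (-0.72, SE 0.13, edgeR adjusted p = 0.0291, against 0.233 without the block). The order of knockout and wild type for Masp2 was thus the reverse of that for Pamr1.

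**Figure D4:**
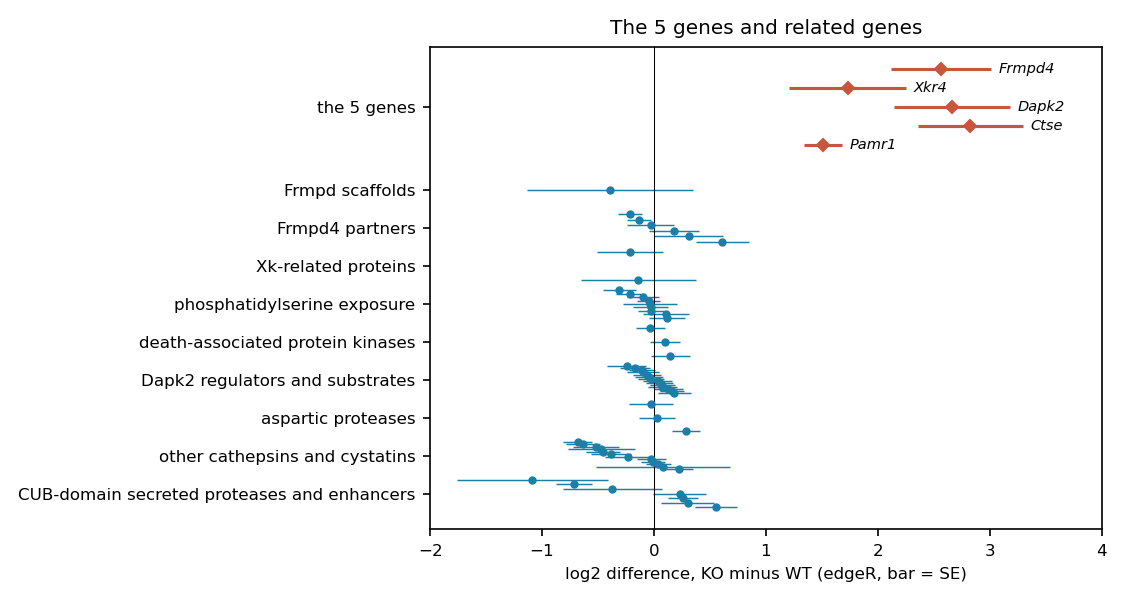
Log2 difference between knockout and wild type (edgeR, bars are SE) for the 5 genes (red diamonds) and for the 57 tested related genes (blue circles) by list. The related genes run from -1.09 for Tll1 to 0.61 for Gpsm2, and the 5 genes from 1.51 for Pamr1 to 2.83 for Ctse.

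The genes next to the 5 on the chromosome were examined on each side by gene span. On chromosome X, Prps2 and Msl3, which flank Frmpd4 at 88.6 and 76.9 kb, differed by 0.15 (SE 0.16) and -0.06 (SE 0.13) on the log2 scale, with edgeR adjusted p of 0.925 and 0.962. Fam96a and Herc1, at 19.3 and 78.2 kb from Dapk2, differed by -0.0023 (SE 0.23) and 0.07 (SE 0.11), with adjusted p of 0.999 and 0.955. Fjx1 and Slc1a2, at 98.2 and 15.6 kb from Pamr1, differed by 0.11 (SE 0.18) and 0.79 (SE 0.63), with adjusted p of 0.955 and 0.858. None of the tested neighbours was called. Beside Ctse, 5430435G22Rik had a difference of 0.0038 (SE 0.26, adjusted p = 0.999), and Avpr1b had 1 read in all libraries together. Rp1, the neighbour of Xkr4, also had 1 read in all.

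The genes most like each of the 5 over the 6 libraries were found by Pearson's r of log2 CPM among 10620 genes, as a description, since all points share library and genotype. A shared order of libraries follows from this choice and is no separate result. The r does not measure the size of a difference. The log2 genotype differences of the genes found ran from 0.16 for R3hdm2 to 9.98 for Serpina3m, which had 0 and 1 reads in wild type 1 and 2. For Frmpd4 these were Nptx2 (r = 0.997), which encodes a secreted neuronal pentraxin, Tmem64 (0.993) and Trmt61b (0.993). Nptx2 was at 56.6 ± 9.81 CPM in knockout and 23.9 ± 9.28 CPM in wild type (SD, n = 4 and 2). For Xkr4 they were Jmjd4 (0.998), Coq10b (0.995) and Lif (0.995), the gene of a cytokine, at 518 ± 92.2 CPM in knockout and 323 ± 114 CPM in wild type. For Dapk2 they were Loxl4 (0.991), H2afx (0.991) and Dazap2 (0.990). Loxl4, a lysyl oxidase-like gene, was at 6.76, 8.02, 3.90 and 3.31 CPM in knockout 1 to 4 and 1.37 and 1.04 CPM in wild type 1 and 2, with the same high and low pairs as Dapk2.

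For Ctse the most alike genes were Tmem45a (r = 0.997), Mxra7 (0.991) and R3hdm2 (0.990). Tmem45a was at 12.3 CPM in knockout 3 and between 16.8 and 18.6 CPM in the other knockout libraries, against 9.25 and 7.04 CPM in wild type 1 and 2. Among knockout libraries it too was lowest in knockout 3, an order that its choice by r favours. For Pamr1 they were Ankrd1 (0.991), which encodes a muscle ankyrin repeat protein, Serpina3m (0.988), which encodes a secreted protease inhibitor, and Tmem65 (0.982). Within the 4 knockout libraries the later pair was the higher one for Frmpd4 and Xkr4 and the lower one for Dapk2, while for Ctse and Pamr1 the pairs overlapped.

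Markers of other cell types were read in the same libraries, and their part in the levels of the 5 genes was not tested. All 9 Schwann and nerve markers had positive log2 differences, from 0.06 for Ngfr and 0.14 for Sox10 to 3.67 for Foxd3. Their summed level was 285 to 439 CPM in knockout and 249 to 301 CPM in wild type, mostly from Sox10 and Mbp. The sum therefore says little about the less abundant markers. Among these, Cdh19 was at 6.06 to 18.4 CPM in knockout and 1.31 to 2.25 CPM in wild type. Its log2 difference was 2.62 (SE 0.503, edgeR adjusted p = 0.176). None of the 9 was called without the day block. With it Foxd3 rose (3.60, SE 0.76, edgeR adjusted p = 0.0487), as did 1.12% of all genes tested. Foxd3 had 11, 11, 41 and 17 reads in knockout 1 to 4. It had only 1 and 2 reads in wild type 1 and 2, so its fold rests on few reads. All 9 endothelial markers had negative differences, with sums of 21.1 to 33.2 CPM in knockout and 47.0 to 146 CPM in wild type, and 0 were called. All 9 fibroblast markers had negative differences, with sums of 114 to 151 CPM in knockout and 150 to 169 CPM in wild type, and 0 were called.

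Hormone-sensing luminal markers had 7 of 8 positive differences, with a range from -0.20 for Areg to 1.59 for Ly6a, and 0 were called. Their sums were 155 to 280 CPM in knockout and 126 to 219 CPM in wild type, with Areg the largest part. Luminal progenitor markers had 1 of 7 positive differences, with a range from -0.75 for Elf5 to 0.87 for Ltf. Their sums were 1112 to 1497 CPM in knockout and 1198 to 1543 CPM in wild type, mostly from Lcn2. Each sum therefore says little about its less abundant markers. With the day block the lactoferrin gene Ltf rose (0.82, SE 0.16, edgeR adjusted p = 0.0370), again beside 1.12% of all genes called higher. Leukocyte markers had sums of 20.03 to 32.8 CPM in knockout and 28.8 to 28.9 CPM in wild type, mostly from Cd68, while Ptprc, the gene of CD45, was at 0.0610 CPM in knockout and 0.228 CPM in wild type. Of 4 leukocyte markers tested 0 were called.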

How the data were processed

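Raw counts of reads per gene were deposited, 1 library a file, made by the authors with featureCounts 1.5.1 over exons of the UCSC mm10 annotation in the reverse-stranded setting, per the file headers. No option for multi-mapped or multi-overlapping reads is set there. The submitters' processing notes name bcl2fastq 2.17, STAR 2.5.2b and Subread 1.5.1. The kit kept strand (TruSeq Stranded mRNA), per the labels' protocols.

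Genes were kept with filterByExpr (13925 of 23337), scaled by TMM and fitted with edgeR 4.0.16 in R 4.3.3 (glmQLFit, robust; glmQLFTest, 2-sided). Adjusted p is Benjamini-Hochberg over all tested genes, with calls under 0.05. Genotype was the only term; day code was added for the block and the day test, and their interaction for the last test. DESeq2 1.42.0, limma-voom (limma 3.58.1), other scalings and filters, and leaving out each library were alternatives. The fits were tested on simulated data. The SE of an edgeR log2 difference is its absolute value divided by the square root of the F statistic of glmQLFTest. Log2 CPM used a prior count of 2. Intervals are exact Poisson and cover counting error alone, as there were no molecular identifiers.

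The members and lists were chosen with earlier results of these data known. Named were the 5 genes, Vim, related genes called in either fit, the highest per length of each related list, the 3 most alike genes (mean log2 CPM of at least 1, predicted genes left out) and the nearest gene on each side. Xkr8, Homer1, Homer2, Dlg4, Arhgef7, Gpsm2, Tll1 and the marker genes were chosen after their values were seen. Deviations from the group means correlated between libraries of the same day code (r = 0.25 to 0.41 across genes) and negatively otherwise, so the day code was taken to pair libraries; with 2 wild-type libraries these values mirror each other. Numbers in the sample titles pair nothing. No 2 libraries agreed within counting error: the mean chi-square per gene between libraries was 11.2 or more, where counting error alone gives about the value for 1 degree of freedom.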

Additional observations from a re-analysis of the deposited data

How the results depend on the processing

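The log2 difference between knockout and wild type kept its sign for all 5 genes in every alternative run. When 1 library was left out it ran from 2.03 to 3.38 for Frmpd4 and from 1.12 to 2.80 for Xkr4, with the ends set by the wild-type libraries. The day difference of Xkr4 ran from 0.93 to 1.34. That of Dapk2 passed by DESeq2 (-0.97), limma-voom (-1.12) and without a filter (-0.99), and that of Frmpd4 by DESeq2 (0.84) and without a filter (0.83). With the replicate block the differences of the 5 genes between genotypes were 1.51 to 2.86, all in the same direction. The genotype call count of 11 was 217 with the day code as replicate block, 262 by DESeq2 and 3 to 15 when 1 library was left out (5 without knockout 2, 3 without knockout 3, 5 without knockout 4 and 4 without wild type 1). The day count of 895 was 1473 by DESeq2 and 38 to 1838 with 1 library left out (1838 without knockout 1, 482 without knockout 3, 120 without knockout 4, 38 without wild type 1 and 42 without wild type 2). The interaction count of 0 was 11 by DESeq2, 7 without a filter and 3 to 371 with 1 knockout library left out (203 without knockout 1, 371 without knockout 2, 7 without knockout 3 and 3 without knockout 4). That test cannot be fitted without a wild-type library. The cause of these shifts was not tested beyond fewer samples. Of 152 alternative values 123 were counted as the same. For a genotype difference this meant the same sign and a shift below the SD between knockout libraries. For a day difference it meant the same side of the threshold, whatever the sign where neither value was called. The day difference of Pamr1 ran from -0.07 to 0.08, so values that changed sign are among the 123. Counts of called genes were among the 123 when they stayed within a set fold of the main count. With 1 wild-type library a day, and 20 to 54 wild-type reads for Frmpd4, Dapk2 and Ctse, depth and numbers both limit the folds.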
